A study of Homo sapiens with 19 samples.

Results

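GDF15 and 9 other genes that are textbook targets of the transcription factor p53 (CDKN1A, BTG2, MDM2, TP53INP1, BBC3, FAS, TP53I3, SESN1 and RRM2B) were followed gene by gene in the human embryonic stem cell line KhES-3 during the first days of differentiation towards brown adipocytes. All 10 genes, of 20503 gene symbols matched on the arrays, had at least 1 probe. They were measured by 18 probes on 36 spots per array, all 18 probes passed the filter on low signals, and each gene is represented by its brightest probe. The cells were induced in low-attachment dishes in a serum-free medium with a cytokine mix (IGF-II, BMP4, VEGFA, KITLG, FLT3LG and IL-6), and cells were collected once at each of 19 times from 3 to 72 h. Every sample received the same induction, and no sample without induction was analysed here. The labels place the stem cells on irradiated mouse fibroblast feeders before induction, whereas the methods of the study describe a feeder-free system.

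p53 is a transcription factor that accumulates when DNA is damaged or a cell is stressed, and it then raises the transcription of genes that stop the cell cycle, start cell death, repair DNA or change metabolism. One of its targets, MDM2, marks p53 for destruction, so that the response is held in a feedback loop. Pluripotent stem cells are known for an active p53 pathway that readily leads to death or differentiation. GDF15, a secreted member of the TGFB superfamily, is itself a p53 target and also answers to other stress pathways.

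The arrays were spread over 3 slides, which held 3 to 12 h, 14 to 42 h and 48 to 72 h, with a later scan day for the last of them. Each slide thus held its own span of hours, and a slide effect and a change over time between slides cannot be told apart. A fit with the slide as a block sets both aside and keeps the changes within slides. Each array was scaled by its 75th percentile, 655 to 1003 before scaling, and between 49.7% and 64.7% of the probes were well above background on an array. Each time point is 1 array, so the error of a fitted value is the scatter of the arrays around the fitted course, moderated by limma over all probes. A change between 2 arrays has no replicate check. Spots of the same probe, 10 on each array for 1 probe of FAS and 1 of MDM2, had a standard deviation on the log2 scale of 0.05 to 0.20 within an array. The stem cell markers POU5F1 (248980 to 380190), NANOG (16834 to 39129) and SOX2 (19802 to 32378) were detected on all 19 arrays. Of the 6 brown adipocyte markers, PRDM16 was well above background on 13 arrays, UCP1, CIDEA and PPARG on 8 each, and FABP4 and ADIPOQ on 0. PPARG rose over hours (limma adjusted p = 7.86e-05), from 17.5 on the 3 earliest arrays, where it was not well above background, to 44.0 on the 3 latest. With the slide as a block its rise was not called (adjusted p = 0.070). UCP1, PRDM16 and CIDEA had slopes below 0 that were not called at this scaling (adjusted p = 0.223, 0.389 and 0.441). Of the 6 fibroblast markers, THY1 (12254 to 33070), COL1A1 (6642 to 9908) and COL1A2 (4410 to 6351) were detected on all 19 arrays, DCN on 9, and COL3A1 and LUM on 1 array each.

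The 10 genes did not move together. Against hours, CDKN1A rose along with GDF15, TP53I3 and FAS fell, and for the other 6 no slope passed the test. Between 54 and 60 h the signals of GDF15, CDKN1A and BTG2 more than doubled at the 75th percentile scaling, and those of the other 7 genes did not. BTG2, BBC3 and the brightest probe of MDM2 were high at both ends of the course and lowest at 16, 20 and 24 h, so that their first and last values were alike. BTG2 and this probe of MDM2 were also low on the 48 h array, at 1126 and 444.

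**Figure D1:**
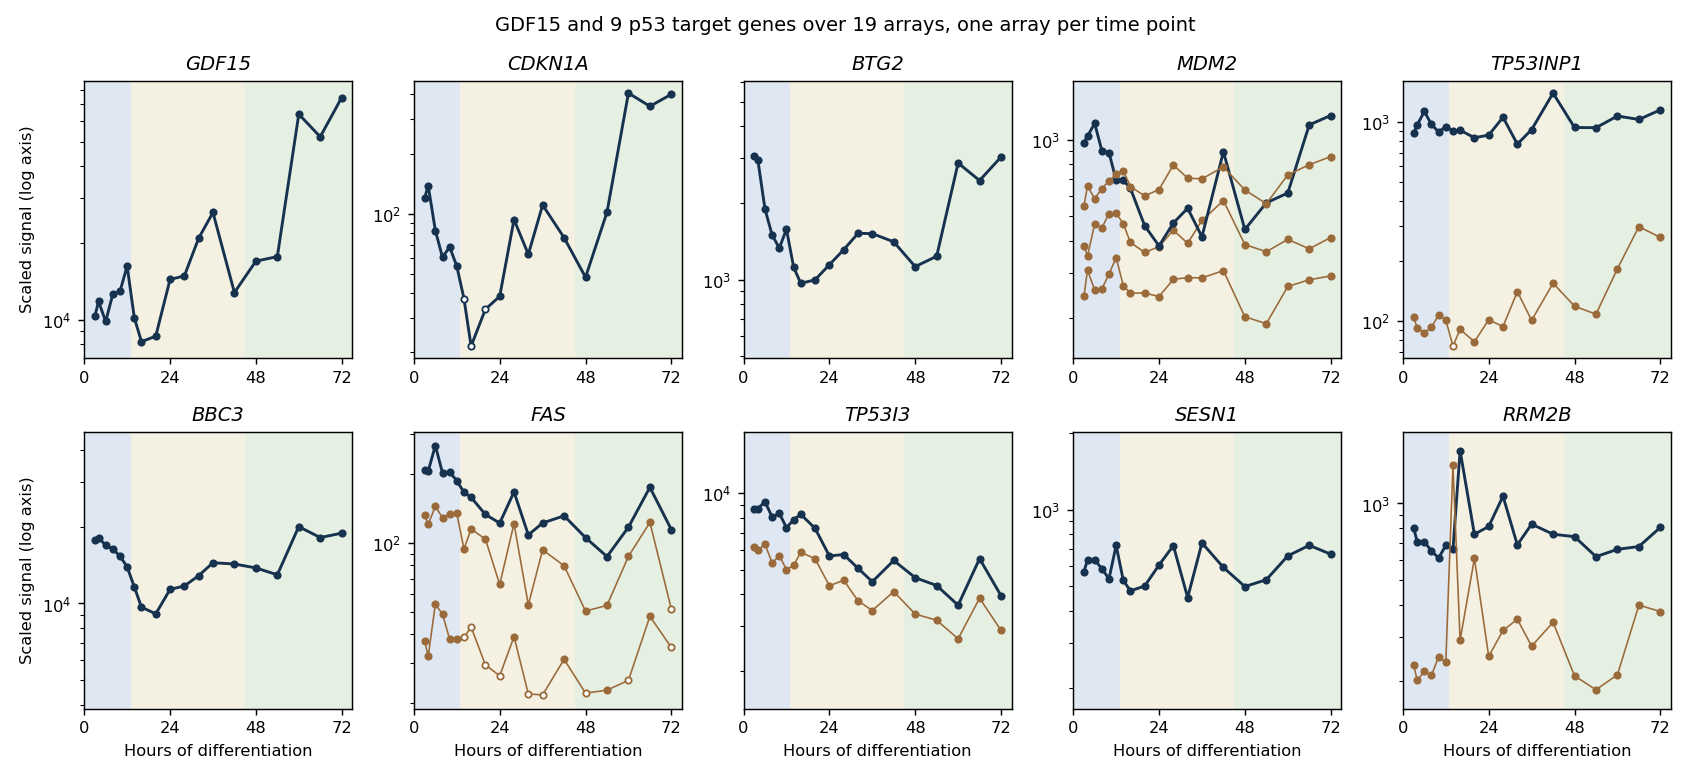
Scaled signal on a log axis against hours of differentiation for each of the 18 probes of the 10 genes, 1 array per time point. Dark lines are the brightest probe of a gene and brown lines its other probes, open circles are values not well above background, and the shaded bands are the 3 slides. GDF15 and CDKN1A are highest on the 3 arrays from 60 to 72 h, BTG2 and BBC3 dip to 969 and 9105 at 16 and 20 h, and TP53I3 declines from 8668 at 3 h to 3958 at 72 h.

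GDF15 had scaled signals of 10322, 11783, 9824, 12589, 12893 and 16219 at 3, 4, 6, 8, 10 and 12 h. On the second slide they were 10170, 8186, 8600, 14366, 14832, 20858, 26320 and 12765 at 14, 16, 20, 24, 28, 32, 36 and 42 h. On the third slide they were 16948 and 17659 at 48 and 54 h, and 64052, 52177 and 74421 at 60, 66 and 72 h. The 3 last arrays lay above all 16 others, and the value at 36 h was the highest before them. In bulk RNA, a change in the share of cells that express a gene and a change of RNA per cell cannot be told apart. The study chose GDF15 for its rise on these same arrays, so its slope of 0.036 log2 units per hour (SE 0.0053, limma adjusted p = 1.86e-05) is a description and not independent evidence of a rise.

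CDKN1A encodes p21, the inhibitor of cyclin-dependent kinases through which p53 stops the cell cycle. Its signals were 120, 139, 82.4, 60.4, 68.2 and 54.4 from 3 to 12 h. At 14, 16 and 20 h they were 37.4, 21.5 and 33.0, and none of these 3 values was well above background. From 24 to 42 h they were 38.4, 93.6, 62.5, 111 and 75.8, a low and uneven course. They were 47.9 and 102 at 48 and 54 h and then 406, 349 and 401 at 60, 66 and 72 h, so that the 3 last arrays lay above the 16 others. CDKN1A thus declined on the first slide while it stayed well above background there, was at the detection limit around 16 h, and was high at the end.

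With time as a straight line, CDKN1A rose by 0.033 log2 units per hour (SE 0.0097, limma adjusted p = 0.0076). Of the 10 genes, 2 rose (GDF15 and CDKN1A) and 2 fell (TP53I3 and FAS), beside 24.6% of all 16697 genes tested that rose and 29.8% that fell. The share of members called was thus near that of all genes. Over the arrays from 3 to 54 h alone, CDKN1A had a slope of 0.0012 log2 units per hour (SE 0.012, adjusted p = 0.937), whereas GDF15 still rose (0.017, SE 0.0058, adjusted p = 0.023). Leaving out any 1 array kept the rise of CDKN1A called, with slopes from 0.028 to 0.038. With normexp background correction and quantile normalization its slope was 0.017 (adjusted p = 0.013), and against log2 hours its rise was not called (0.29 log2 units per doubling of time, SE 0.18, adjusted p = 0.193).

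**Figure D2:**
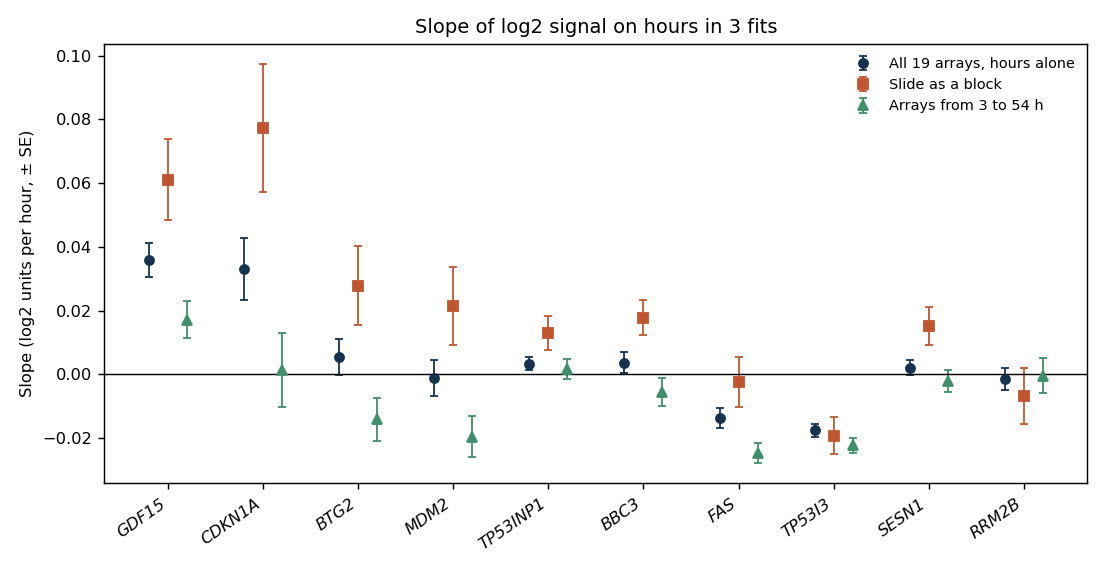
Slope of log2 signal on hours for each of the 10 genes, in log2 units per hour with its standard error, fitted on all 19 arrays, with the slide as a block, and on the 16 arrays from 3 to 54 h. GDF15 and TP53I3 pass the threshold in the same direction in all 3 fits, and no other member does. The slope of CDKN1A is 0.0012 without the 3 last arrays, and that of BTG2 is 0.0054, 0.028 and -0.014.

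CDKN1A was also compared with GDF15 directly, as the log2 ratio of the 2 signals on each array, which does not depend on the scaling. The slope of this ratio was -0.0028 log2 units per hour (SE 0.0069, 95% interval -0.017 to 0.011, limma adjusted p = 0.696). For the other 8 genes the ratio to GDF15 fell, from -0.030 for BTG2 to -0.053 for TP53I3, beside 94.2% of all other probes for which it fell. With the slide as a block it fell for the same number of members, 8 of 9, beside 93.8% of the probes. The study chose GDF15 for its rise on these same arrays, so these falls are descriptions and not independent evidence. The ratio of CDKN1A to GDF15 did not hold 1 course within the slides. On the first slide it fell by 0.205 log2 units per hour (SE 0.029, adjusted p = 0.0084), and on the later slides its slopes were 0.026 (adjusted p = 0.275) and 0.035 (adjusted p = 0.306). Within the second and the third slide limma gave all member probes the same SE, 0.021 and 0.033. The adjusted p there thus rests on a shared error and not on the scatter of each gene.

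BTG2, a gene that restrains proliferation and promotes the shortening of mRNA tails, had signals of 3067, 2952, 1893, 1497, 1333 and 1579 from 3 to 12 h. They were 1121, 969, 1000, 1146, 1312, 1522, 1519 and 1410 from 14 to 42 h. On the third slide they were 1126 and 1237 at 48 and 54 h and 2874, 2454 and 3035 at 60, 66 and 72 h. BTG2 was thus 3.17-fold higher at 3 h than at 16 h, and the late level lay at the level of the 2 earliest arrays. The 3 late arrays overlapped the others, since 2 of the 16 earlier arrays, at 3 and 4 h, lay above the lowest of them. Its slope over all arrays was 0.0054 log2 units per hour (SE 0.0057, adjusted p = 0.441).

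A cubic curve in hours, which allows a fall and a return, was called for 7 of the 10 genes (GDF15, CDKN1A, BTG2, BBC3, MDM2, FAS and TP53I3) by the limma F-test. It was called for 76.8% of all probes, so the count is near the background. With the slide as a block, the same genes without FAS were called, 6 of the 10, beside 31.6% of all probes. The adjusted p in that fit was 0.0029 for BTG2, 0.0031 for CDKN1A, 0.0044 for MDM2 and 0.0056 for BBC3.

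The largest change of GDF15, CDKN1A, BTG2 and BBC3 between neighbouring arrays of a slide was that from 54 to 60 h. The signal of CDKN1A at 60 h was 3.99-fold that at 54 h (2.00 on the log2 scale), that of GDF15 3.63-fold (1.86) and that of BTG2 2.32-fold (1.22). A change of 2-fold or more upward was found for these 3 of the 10 genes and for 1.01% of all genes. A change at least as large as that of CDKN1A was found for 0.234% of all genes, one at least as large as that of GDF15 for 0.27%, and one at least as large as that of BTG2 for 0.653%. The other 7 genes changed by -0.26 (TP53I3) to 0.63 (BBC3) on the log2 scale, and the median of all genes was -0.02. Both arrays lay on the same slide, and with 1 array at each time the change has no test.

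Spike-in RNA consists of transcripts of known amount added before labelling. Scaled to it, the change from 54 to 60 h was 3.12-fold for CDKN1A, 2.84-fold for GDF15 and 1.82-fold for BTG2, and 0.449% of all genes changed by 2-fold or more upward. The level of the spike-in RNA relative to the 75th percentile moved with the late arrays. On the log2 scale it was 3.66 and 4.02 for the arrays at 54 and 60 h, and 4.74 and 4.75 for those at 66 and 72 h, beside 3.54 to 4.38 on the arrays from 3 to 48 h. Its part in the late values of the 10 genes was not tested beyond this scaling.

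How far the 3 arrays from 60 to 72 h lay off the course of the others was fitted as a step, with hours and slide in the fit. The cut after 54 h was set with the late values of these genes known, so the steps are descriptions and not independent evidence of a late rise. The step of GDF15 was 1.26 log2 units (SE 0.33, limma adjusted p = 0.033), the 1 of the 10 genes past the threshold, beside 3.68% of all genes with a step upward and 5.37% with a step downward. CDKN1A had a larger step with a larger error (1.72, SE 0.58, adjusted p = 0.074). The steps of BTG2 (1.09, SE 0.35, adjusted p = 0.067) and FAS (0.67, SE 0.22, adjusted p = 0.068) also missed the threshold. GDF15 no longer passed when the array at 14, 48, 54, 60 or 72 h was left out, with adjusted p of 0.058, 0.140, 0.149, 0.063 and 0.056. Without the 60 h array FAS (0.86, adjusted p = 0.022), MDM2 (1.23, adjusted p = 0.042) and TP53I3 (0.57, adjusted p = 0.030) were called in its place.

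Without slide in the fit, 6 of the 10 genes had a step upward (CDKN1A 2.54, BTG2 1.54, GDF15 1.49, MDM2 1.32, FAS 0.85 and BBC3 0.74 log2 units), beside 9.83% of all genes with a step upward and 10.4% with one downward. With normexp background correction and quantile normalization, CDKN1A (1.47, SE 0.26, adjusted p = 0.0030), GDF15 (1.16, adjusted p = 0.028) and BTG2 (1.07, adjusted p = 0.033) were called, beside 4.02% of all genes upward and 6.7% downward. After spike-in scaling none of the 10 was called, nor at an unadjusted p under 0.05, and the steps of GDF15 and CDKN1A were 0.66 (adjusted p = 0.214) and 1.13 (adjusted p = 0.173). All 3 late arrays lay above all 16 earlier ones for GDF15, CDKN1A and BBC3, beside 5.95% of all genes, and for none of the 10 did they lie below all 16, beside 10.2%.

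The promoter sequences of the 3 genes that more than doubled from 54 to 60 h are shown because p53 and the general factor Sp1 act through short sequence motifs near the start of a gene. They are the 250 bases before the start site in RefSeq (build GRCh38.p14), 5′ to 3′ on the strand of the gene. Capitals mark GGGCGG on either strand, the core letters of the Sp1 motif, and TATAA on the coding strand, the core letters of the TATA box.
GDF15 chr19:18385908-18386157, plus strand: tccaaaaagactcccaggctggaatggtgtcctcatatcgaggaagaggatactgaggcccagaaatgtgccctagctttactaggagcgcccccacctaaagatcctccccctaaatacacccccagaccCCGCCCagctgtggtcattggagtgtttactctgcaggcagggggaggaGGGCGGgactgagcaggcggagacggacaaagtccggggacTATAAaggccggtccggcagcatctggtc
CDKN1A chr6:36678464-36678713, plus strand: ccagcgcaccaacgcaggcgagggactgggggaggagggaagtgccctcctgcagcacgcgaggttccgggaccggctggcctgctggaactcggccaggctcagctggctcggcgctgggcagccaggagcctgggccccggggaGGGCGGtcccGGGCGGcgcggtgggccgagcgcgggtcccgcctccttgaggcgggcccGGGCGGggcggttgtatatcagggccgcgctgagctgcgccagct
BTG2 chr1:203305269-203305518, plus strand: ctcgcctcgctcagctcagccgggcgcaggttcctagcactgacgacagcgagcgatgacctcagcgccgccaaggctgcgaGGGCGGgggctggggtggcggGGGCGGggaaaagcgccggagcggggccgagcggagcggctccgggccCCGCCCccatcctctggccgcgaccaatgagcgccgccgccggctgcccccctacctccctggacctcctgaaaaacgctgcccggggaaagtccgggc
GGGCGG was found 2 times in GDF15, 4 times in CDKN1A and 3 times in BTG2, counting both strands, and in CDKN1A the last capital run overlaps a further match by 1 letter. At least 1 match was found in 42.6% of the same part of all 35116 RefSeq promoter windows, and 3 or more in 13.9%. TATAA was found in GDF15 and in neither of the others, and in 13.6% of all windows.

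Matches to the p53 half-site, the motif of 10 letters that p53 binds as a pair, were sought on both strands in the windows from 250 bases before to 50 after the start. RefSeq windows matched 8 of the 10 genes, in 15 windows, and not RRM2B or TP53INP1. A pair of half-sites with at most 3 mismatches and at most 13 bases between them was found in 1 window each of GDF15, FAS and SESN1, and in 4.49% of all windows. These matches are shown with the letters of the pair in capitals and up to 5 bases on each side.
GDF15 chr19:18386181-18386207, plus strand: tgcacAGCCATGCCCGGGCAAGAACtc
FAS chr10:88991304-88991333, plus strand: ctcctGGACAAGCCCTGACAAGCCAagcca
SESN1 chr6:109009013-109009042, minus strand: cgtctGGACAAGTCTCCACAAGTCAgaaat
The match of GDF15 began 29 bases after the start and had 3 mismatches. That of FAS began 122 bases before the start of 1 of its 3 windows and had 2 mismatches, and that of SESN1 began 49 bases before the start of 1 of its 3 windows and had 3. The FAS and SESN1 matches each held 1 half-site without a mismatch, as did 6.63% of all windows. A match of letters describes the sequence and not binding. Sequence more than 250 bases before or 50 after the start was not searched, so the absence of a match covers these windows alone.

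MDM2, the ubiquitin ligase that degrades p53, had 4 probes, and they did not follow 1 course. The brightest had signals of 972, 1032, 1159, 907, 890 and 693 from 3 to 12 h and of 693, 644, 459, 383, 471, 538, 416 and 896 from 14 to 42 h. It had 444, 565, 617, 1143 and 1244 from 48 to 72 h, so that the 24 h array was lowest and the 72 h array highest. Its slope was -0.0012 log2 units per hour over all arrays (SE 0.0057, adjusted p = 0.872). Over the arrays from 3 to 54 h it fell (-0.020, SE 0.0064, adjusted p = 0.019), a fall that none of the other 3 MDM2 probes showed at the threshold.

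The other MDM2 probes stayed within 349 to 577, 189 to 344 and 551 to 858 over the 19 arrays, and no slope of theirs passed over all arrays (adjusted p from 0.082 to 0.566). With the slide as a block, 1 of them, the probe with 10 spots, rose (0.017, SE 0.0044, adjusted p = 0.025), and neither the other 2 nor the brightest passed. From the 3, 4 and 6 h arrays to the 60, 66 and 72 h arrays the 4 probes changed by -0.14 (the brightest), 0.00, 0.06 and 0.41 on the log2 scale. The dip of the brightest probe is thus a measurement of that probe and not of all MDM2 probes.

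TP53INP1, a stress protein that takes part in the activation of p53, had signals between 774 (32 h) and 1397 (42 h) with a median of 939 for its brighter probe. Its slope was 0.0032 log2 units per hour (SE 0.0020, adjusted p = 0.187). Its dimmer probe differed. It had signals from 74.8 to 155 on the 16 arrays from 3 to 54 h and of 183, 298 and 263 at 60, 66 and 72 h, so that these 3 arrays lay above all others. This probe rose by 0.020 log2 units per hour (SE 0.0033, adjusted p = 5.67e-05), and the 2 probes of the gene therefore disagree. With the mean of its probes in place of the brighter one, TP53INP1 rose by 0.012 log2 units per hour (adjusted p = 0.00015).

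Of the targets that act in cell death, BBC3 encodes PUMA, which opens the mitochondrial path to apoptosis, and FAS is a death receptor at the cell surface. BBC3 had signals of 17742, 18133, 16915, 16384, 15328 and 13938 from 3 to 12 h. They were 11613, 9677, 9105, 11356, 11716, 12858, 14456 and 14291 from 14 to 42 h, and 13793, 12962, 20042, 18148 and 18892 from 48 to 72 h. The lowest of the 3 late arrays lay just above the highest early one, 18148 against 18133. Its slope was 0.0037 log2 units per hour (SE 0.0033, adjusted p = 0.370). With the slide as a block it rose (0.018, SE 0.0054, adjusted p = 0.048), as it did with normexp and quantile normalization (0.0084, adjusted p = 0.023), whereas with the array median and the spike-in RNA its slope was below 0 and not called.

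FAS had signals of 209, 207, 267, 203, 204 and 188 from 3 to 12 h. They were 167, 159, 134, 122, 168, 109, 123 and 132 from 14 to 42 h, and 106, 87.4, 118, 176 and 115 from 48 to 72 h. FAS fell by 0.014 log2 units per hour (SE 0.0032, adjusted p = 0.0015), and its lowest array was that at 54 h. The late arrays lay among the others, with 13 of the 16 earlier arrays above the lowest of them. The fit with slide as a block gave -0.0025 (adjusted p = 0.879), so the fall was not called within slides. Of its other 2 probes, 1 fell over all arrays (-0.015, adjusted p = 0.0050) and the other, well above background on 10 arrays, did not pass (-0.0074, adjusted p = 0.129).

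TP53I3, a quinone oxidoreductase induced by p53 and linked to reactive oxygen, had signals of 8668, 8696, 9257, 8049, 8337 and 7316 from 3 to 12 h. They were 7862, 8260, 7274, 5668, 5740, 5072, 4488 and 5442 from 14 to 42 h, and 4656, 4339, 3630, 5532 and 3958 from 48 to 72 h. TP53I3 fell by 0.018 log2 units per hour (SE 0.0021, adjusted p = 1.55e-06), and its second probe fell alike (-0.016, SE 0.0018, adjusted p = 8.49e-07). It fell also with the slide as a block (-0.019, SE 0.0059, adjusted p = 0.048) and over the arrays from 3 to 54 h (-0.022, SE 0.0023, adjusted p = 1.84e-06). It was the member whose course ran most against that of GDF15.

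SESN1, a sestrin that restrains the growth kinase mTORC1 under stress, had signals between 451 (32 h) and 739 (36 h) with a median of 592. Its slope was 0.0021 log2 units per hour (SE 0.0024, adjusted p = 0.475), and the neighbouring arrays at 32 and 36 h spanned its whole range. RRM2B, the p53-induced subunit of ribonucleotide reductase that supplies nucleotides for repair, lay between 611 and 1068 on 18 arrays and at 1611 at 16 h. Its second probe lay between 186 and 399 on 17 arrays, with 1411 at 14 h and 608 at 20 h. The 2 RRM2B probes, each 1 spot on an array, thus had their highest values on different arrays. The brighter probe had 661 at 14 h, where the other peaked. The slope of RRM2B was -0.0014 log2 units per hour (SE 0.0034, adjusted p = 0.747), and without the 16 h array it was 0.0003 (adjusted p = 0.914).

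From the 3 earliest to the 3 latest arrays, GDF15 changed by 2.57 and CDKN1A by 1.79 on the log2 scale, TP53I3 by -1.04 and FAS by -0.76. The change of CDKN1A was smaller with normexp and quantile normalization and with the spike-in RNA (1.14 with the latter). The other 6 genes changed by -0.14 (MDM2) to 0.16 (SESN1). A change of 2-fold or more was thus found upward for 2 of the 10 genes, beside 7.31% of all genes, and downward for 1, beside 5.86%. The median over the 10 genes was 0.11, and that of all genes was -0.05. The median of all genes was -0.42 with the array median as the scaling and -0.69 with the spike-in RNA, and with these the changes of BTG2, BBC3, SESN1 and TP53INP1 turned below 0.

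Fitted within each slide, GDF15 and SESN1 had slopes above 0 and TP53I3 slopes below 0 on all 3, and few of the 10 genes passed the test on any. On the first slide, CDKN1A and BTG2 had slopes of -0.143 (SE 0.028, adjusted p = 0.052) and -0.130 (SE 0.030, adjusted p = 0.071) log2 units per hour, and GDF15 one of 0.062 (SE 0.019, adjusted p = 0.120). None of the 10 genes was called by limma on the first slide, beside 4.65% of all probes, and at an unadjusted p under 0.05 there were 1 above 0 and 4 below. On the second slide, CDKN1A (0.068, SE 0.017, adjusted p = 0.055), GDF15 (0.042, SE 0.016, adjusted p = 0.136), BTG2 (0.023, SE 0.0058, adjusted p = 0.056) and BBC3 (0.020, SE 0.0058, adjusted p = 0.074) had slopes above 0. On that slide TP53I3 fell (-0.028, SE 0.0065, adjusted p = 0.045), the 1 member called, beside 6.55% of all probes. On the third slide, CDKN1A (0.132, SE 0.029, adjusted p = 0.077), GDF15 (0.097, SE 0.022, adjusted p = 0.079) and BTG2 (0.064, SE 0.015, adjusted p = 0.086) had slopes above 0, with none of the 10 called, beside 1.04% of all probes, and 5 above 0 at an unadjusted p under 0.05.

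With the slide as a block over all arrays, GDF15 (0.061, SE 0.013, adjusted p = 0.0088), CDKN1A (0.077, SE 0.020, adjusted p = 0.025) and BBC3 rose and TP53I3 fell. These were 3 and 1 of the 10 genes, beside 4.71% of all probes that rose and 4.46% that fell. BTG2 had a slope of 0.028 in this fit (SE 0.012, adjusted p = 0.169).

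Across the 19 arrays, which share slides and scaling, the Pearson r of CDKN1A with GDF15 was 0.835 as a description. It was 0.679 without the 60 and 72 h arrays, which lay farthest from the median of GDF15, and 0.409 over the 16 arrays from 3 to 54 h. The r with GDF15 was 0.575 for BBC3 and 0.560 for BTG2, and -0.780 for TP53I3 and -0.418 for FAS. Over 3 to 54 h it was 0.184 for BBC3 and 0.004 for BTG2. Over the 16 changes between neighbouring arrays of a slide, the order differed, with 0.802 for BBC3, 0.785 for BTG2 and 0.597 for CDKN1A. Among the members themselves, BTG2 and BBC3 had an r of 0.887, BTG2 and CDKN1A of 0.852, and FAS and TP53I3 of 0.848. Over all 19 arrays, BTG2 thus lay closer to BBC3 and CDKN1A than to GDF15.

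Among 13969 genes well above background on all 19 arrays, the 5 with the highest r with GDF15 were ZFAND3 (0.964), TMEM101 (0.960), CEP290 (0.943), INTU (0.942) and RBM33 (0.939). In that ranking BBC3 stood at place 2073 and BTG2 at 2184, and CDKN1A was not ranked because it was well above background on 16 arrays. In the ranking TP53I3 stood at place 12765.

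MDM4, a relative of MDM2 that inhibits p53, had a slope of -0.0018 log2 units per hour (limma adjusted p = 0.498), and PPM1D, a phosphatase that ends p53 signalling, one of -0.0004 (adjusted p = 0.908). With the spike-in RNA both fell (adjusted p = 0.028 and 0.041). Of 11 regulators of p53 tested, 4 rose and 2 fell, beside 24.6% and 29.8% of all genes. Among those that rose were TP73, a relative of p53 (0.86 from early to late on the log2 scale), and PPP1R13L, an inhibitor of p53 (0.73). The split depended on the scaling, with 1 rising and 6 falling at the array median and 0 and 6 with the spike-in RNA, and 2 rose and 1 fell when slide was a block. TP73 changed by 0.22 and PPP1R13L by 0.09 with the spike-in RNA, where neither was called (adjusted p = 0.305 and 0.477). PPP1R13L was also not called with the array median (adjusted p = 0.073), nor TP73 with the slide as a block (adjusted p = 0.178).

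Of 59 other p53 targets in 4 role groups, 57 had a probe and 56 were tested, and 11 rose and 17 fell. These are 19.6% and 30.4%, near the shares of all genes, and the median change from early to late was -0.04. In cell cycle arrest 1 of 7 rose and 1 fell, the latter being PLK2, a kinase of the polo family (-0.65). In cell death 1 of 13 rose and 5 fell, among them BID, which links death receptors to mitochondria (-1.18), and TNFRSF10A, a receptor for TRAIL (-0.86). In repair and metabolism 7 of 15 rose and 2 fell. There POLH, a polymerase that copies past DNA damage (1.18), and TIGAR, which slows glycolysis (0.66), rose, and SESN2, a sestrin like SESN1 (-0.87), fell. Of the remaining 21, 2 rose and 9 fell, with ZMAT3, an RNA-binding protein (0.84), among the first and THBS1, a matrix protein (-1.07), among the second.

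These calls depended on the scaling and on whether slide was in the fit. A call lost with the slide as a block does not show that it came from slides, since slide and time cannot be separated here. With the array median 2 of the 56 rose and 23 fell, beside 14.6% of all probes that rose and 34.6% that fell, and with the spike-in RNA 1 rose and 29 fell, beside 4.63% and 34.8%. When slide was a block, 2 rose (PLK3 and TIGAR) and 0 fell, beside 4.71% and 4.46% of all probes. In that fit BID (adjusted p = 0.094), SESN2 (0.465), THBS1 (0.722), PLK2 (0.880), POLH (0.054) and ZMAT3 (0.229) were not called, and the slope of TNFRSF10A was above 0 (0.0031, adjusted p = 0.902). With the spike-in RNA the rises of TIGAR (adjusted p = 0.510) and ZMAT3 (adjusted p = 0.388) were not called, and that of ZMAT3 was not called with the array median either (adjusted p = 0.102).

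The step after 54 h was called upward for 9 of these 56 genes and downward for 2, beside the 3.68% and 5.37% of all genes given above. Chosen after their values were seen, those with a step upward were GADD45A, PLK3 and SFN among the arrest genes, TNFRSF10A, TNFRSF10B and EDA2R among the death genes, and ZMAT3, FBXO22 and TM7SF3 among the rest. Their steps ran from 0.56 (TNFRSF10B) to 1.27 (TNFRSF10A) log2 units. XPC and FUCA1 had steps downward of -0.42 and -0.57. Only DDIT4, an inhibitor of mTORC1 that also answers to hypoxia and the integrated stress response, changed upward by 2-fold or more from 54 to 60 h (2.02 on the log2 scale), and its step was not called (1.14, adjusted p = 0.519).

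**Figure D3:**
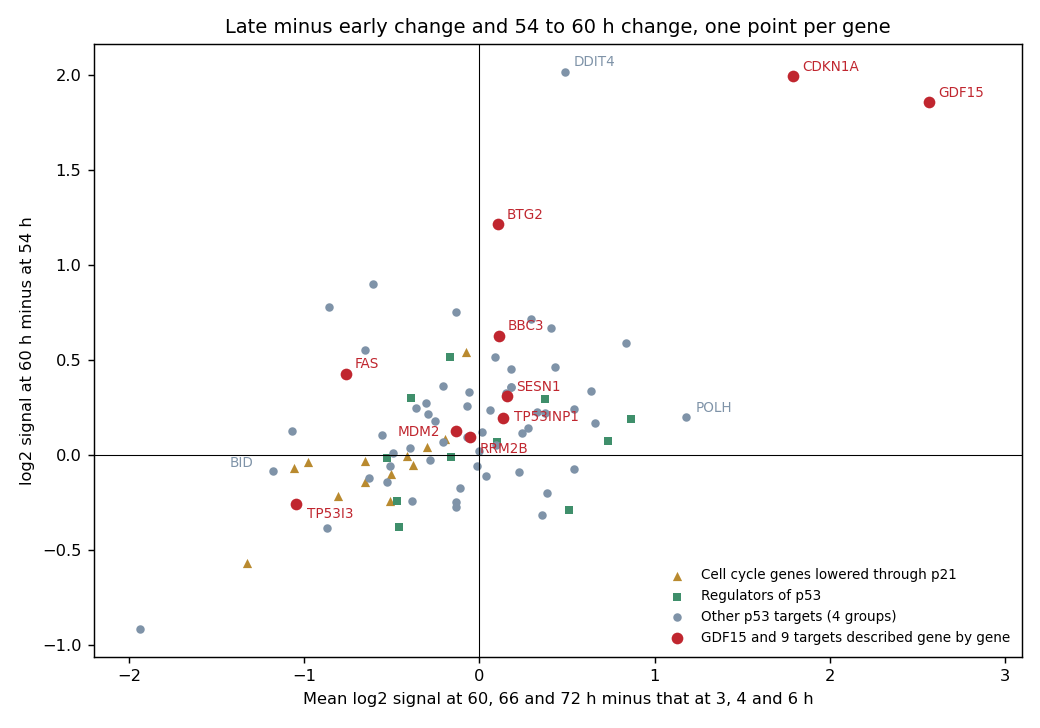
Each point is 1 gene, with its mean log2 signal on the 60, 66 and 72 h arrays minus that on the 3, 4 and 6 h arrays on the horizontal axis and its log2 change from 54 to 60 h on the vertical axis, without replicates. GDF15 and CDKN1A lie at the upper right (2.57 and 1.79 across, 1.86 and 2.00 up), BTG2 lies at 1.22 up with 0.11 across, and TP53I3 lies at the lower left (-1.04 across, -0.26 up).

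Of 13 cell cycle genes that p53 lowers through p21, 0 rose and 10 fell in the limma fit (0 and 11 at an unadjusted p under 0.05), beside 24.6% and 29.8% of all genes. Of the 13, 1 fell when slide was a block, E2F1 (adjusted p = 0.023), beside 4.46% of all probes. Their median change was -0.51 from early to late and -0.05 from 54 to 60 h, when the signal of CDKN1A was 3.99-fold higher. All 13 had their lowest signal later, on the 66 or 72 h array, and the share of all genes with this trait was not counted. The part of CDKN1A in their values was not tested. Of 6 integrated stress response genes, a pathway that also raises GDF15, 1 rose and 3 fell, beside the same shares of all genes, and 0 were called with the slide as a block. From 54 to 60 h, 2 of these 6 changed upward by 2-fold or more, ATF3 (1.30) and DDIT3 (1.06), beside 1.01% of all genes. TRIB3 (-0.70), CHAC1 (-0.62) and ASNS (-0.04) changed downward and ATF4 by 0.14, and these genes were named after their values were seen. Their part in the late values of GDF15 was not tested.

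The 4 trophoblast and amnion markers followed different courses. The step after 54 h was called for 0 of them, beside 3.68% of all genes upward and 5.37% downward. Of 4 such genes 3 rose over hours (CGA, KRT7 and HAND1), beside 24.6% of all genes. At the array median 2 rose, beside 14.6% of all probes, and with the spike-in RNA 1 did (HAND1), beside 4.63%. With the slide as a block 0 rose, beside 4.71% of all probes. KRT7 was well above background on 19 arrays, GATA3 on 18, HAND1 on 13 and CGA on 11. CGA was well above background on 0 of the arrays at 3, 4 and 6 h, so its rise began below detection. Their summed signal was 6662 to 12978 on the arrays from 3 to 54 h and 9212 to 13218 on those from 60 to 72 h, with 10315 at 54 h and 9212 at 60 h. KRT7 made up most of this sum, with 10087 at 54 h and 8949 at 60 h. From 54 to 60 h CGA went from 52.8 to 44.2, HAND1 from 84.2 to 115 and GATA3 from 90.6 to 104, so that the 4 markers did not share a direction. Their part in the late values of the 10 genes was not tested.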

How the data were processed

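RNA of KhES-3 cells at 19 time points, labelled with Cy3, was hybridized to 1 one-colour Agilent array each, and groups are the labelled time points. The authors deposited Feature Extraction 10.10.1.1 output, in which a processed intensity per spot has local background removed, and flags (other columns, scored 0 or 1 per the file headers) for spots above background, saturated or outlying. Their deposited value table holds the same intensities times 1 factor per array (0.905 to 1.38), blank where a spot was not well above background. The genome build of the array design is not given in the sources used here.

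Outlier spots (0.632%) were left out, no spot was saturated, and spots of a probe were averaged. The log2 intensity was centred on the 75th percentile of its array and is printed at a common 75th percentile of 871. Of 50683 probes, 28174 were matched through RefSeq to 20503 symbols (GRCh38.p14), and the brightest probe represents a gene. Slopes, steps and cubic curves came from limma 3.58.1 under R 4.3.3 (Benjamini-Hochberg over the 32118 probes detected above background on 5 or more arrays, threshold 0.05), after tests on simulated data. Python 3.11.15, numpy 2.4.6, pandas 2.3.3, scipy 1.17.1 and matplotlib 3.10.9 served for tables and plots. The number of arrays limits the precision.

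Named genes are the 10 members, the regulators MDM4 and PPM1D, the 5 genes most like GDF15, and markers. Named too are, per direction, the 5 regulators or other p53 targets with the largest late minus early change among those called and detected on all 6 arrays. The cell cycle and stress response lists were not part of that ranking. 1 further gene that the rule covers is not reported here, and the next in order took its place. The members and lists were chosen with earlier results of these data known. Alternatives were other scalings (array median, 7 of 10 spike-in levels), normexp (offset 50) with quantile normalization, the deposited table, other filters, the mean of all probes, the slide as a block, log2 hours, 3 to 54 h alone, 1.5-fold, 72 h over 3 h, and leaving out arrays. Fits within slides were chosen after seeing the data. Blots, quantitative PCR, later days and animals were not analysed here.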

Additional observations from a re-analysis of the deposited data

How the results depend on the processing

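No paired analysis was possible because no time point was repeated. Scaling, slide, the filter on background, the 3 late arrays and signals near background, such as those of CDKN1A around 16 h, limit these results. The cause of a change named below was not tested. In the slope on hours, 2 members rose, and 1 rose with a filter on all 19 arrays (which removes CDKN1A), with log2 hours, and over 3 to 54 h. With normexp (BBC3 added), with the mean of all probes (TP53INP1 added) and with the slide as a block (BBC3 added) 3 rose. With the slide as a block 1 member fell in place of 2. Within the slides 0 rose, and TP53I3 alone fell (1 on the second slide, 0 on the others). The step after 54 h was called for 1 member, for 0 with the spike-in RNA and without a filter on background, for 2 with the deposited table, for 3 with normexp or with a filter on all 19 arrays, and for 6 without slide. Leaving out 1 array gave 0 to 3. The ratio to GDF15 fell for 8 members, for 3 within the first slide, 1 within the second and 6 within the third. A late minus early change of 2-fold downward was found for 1 member, for 2 with the array median or the spike-in RNA, and for 0 with normexp.

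Slopes below the threshold that turned sign were those of MDM2 (0.021 with the slide as a block, and -0.0070 to 0.00087 without 1 array), BBC3 (-0.0016 with the array median, -0.0048 with the spike-in RNA, -0.016 with log2 hours, -0.0055 over 3 to 54 h), SESN1 (-0.0032 with the array median, -0.0064 with the spike-in RNA, -0.0022 over 3 to 54 h), BTG2 (-0.0030 with the spike-in RNA, -0.051 with log2 hours, -0.014 over 3 to 54 h), RRM2B (0.00068 with log2 hours, and -0.0024 to 0.00032 without 1 array) and TP53INP1 (-0.0020 with the array median, -0.0052 with the spike-in RNA). Steps that turned sign with the spike-in RNA were those of BBC3 (-0.28), TP53I3 (-0.30), SESN1 (-0.36), RRM2B (-0.37) and TP53INP1 (-0.58). The step of RRM2B was -0.11 without slide, and that of TP53INP1 was -0.0078 with the array median and -0.024 to 0.20 without 1 array. None of these had passed the test. Of the slopes refitted without 1 array, 185 kept their direction and their side of the threshold and 5 turned sign.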

Other observations

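Of the 10 markers in the trophoblast and amnion list and the streak and endoderm list, 6 had their highest signal on the 66 h array, namely HAND1 (641), GATA3 (322) and CGA (98.7) of the first list and EOMES (372), TBXT (295) and SOX17 (1088) of the second. KRT7 was highest at 14 h, MIXL1 at 28 h, GSC at 3 h and FOXA2 at 4 h. The share of all genes with their highest signal on the 66 h array was not counted, so the 6 of 10 has no background beside it. That array had a 75th percentile of 655 before scaling, at the low end of the 19 arrays. TBXT had its lowest signal, 33.7, on the neighbouring 60 h array. On the same 66 h array FAS had 176 between 118 and 115 at 60 and 72 h, and TP53I3 had 5532 between 3630 and 3958, whereas CDKN1A, GDF15 and BTG2 were each lower at 66 h than at 60 and 72 h. A single array stands behind each of these values.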
